A study of Mus musculus with 12 samples.

Results

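The genes described here are 9 genes of myelin and mature oligodendrocytes (Mbp, Mog, Mag, Mobp, Cnp, Cldn11, Opalin, Mal and Apod), taken by name from the 34745 genes of the deposited table and followed across 12 RNA sequencing libraries of the mouse medial prefrontal cortex (mPFC). The libraries fell into 3 groups of 4: the right mPFC of wild-type male mice 28 days after chronic constriction injury (CCI) of the sciatic nerve (contralateral), the left mPFC of such mice (ipsilateral), and the mPFC of untreated wild-type male mice at day 28 of habituation (naive). CCI is a model of neuropathic pain in which ligatures are tied around the nerve. The naive mice had no sham operation, so surgery and nerve injury cannot be told apart, and the labels give neither the hemisphere of the naive libraries nor the age of the mice. Library totals ranged from 16.1 M to 20.6 M counts. The labels do not say whether a library holds 1 animal or several, and p-values set group differences against the spread between these libraries. The tests on 12 libraries treat the left and right libraries of CCI mice as independent.

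Oligodendrocytes wrap axons of the central nervous system in myelin, a stack of membrane rich in cholesterol and galactolipids. A small set of proteins compacts that stack, holds it to the axon and seals its edges, and their transcripts are among the most abundant of white matter. In the cortex, myelin increases toward the deep layers and the underlying white matter, and new oligodendrocytes arise in the adult from precursor cells. Loss or gain of myelin in prefrontal circuits has been studied in stress, social isolation and learning. In a bulk sample, fewer cells of a type and less RNA per cell cannot be told apart.

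All 9 genes were detected in every library and passed the filter on low counts. Their promoters are shown because the genes varied together across libraries, as given below. RefSeq windows (GRCm38.p6) from 250 bases before to 50 bases after the start site were available for 8 of the 9 genes, all but Mbp; where several windows were listed, as for Mag, the first was used. Capitals mark matches to ACAAAG or ACAATG, the core read by SOX factors such as the oligodendrocyte regulator Sox10, and to CTGGCAC or CTGGTAC, the core of the site of Myrf, the regulator of myelin genes; both strands were searched, and no marked matches overlap. The windows of Mobp, Mag and Opalin hold such letters, and Apod is shown as the member whose levels departed most from the others.
Mobp promoter (chr9:120149492-120149791, plus strand): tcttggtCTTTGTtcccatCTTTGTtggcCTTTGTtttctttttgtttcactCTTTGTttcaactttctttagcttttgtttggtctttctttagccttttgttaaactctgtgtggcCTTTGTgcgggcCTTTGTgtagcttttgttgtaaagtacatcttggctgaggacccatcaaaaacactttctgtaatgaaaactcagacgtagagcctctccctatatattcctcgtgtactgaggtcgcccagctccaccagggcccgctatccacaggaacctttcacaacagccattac
Mag promoter (chr7:30914814-30915113, minus strand): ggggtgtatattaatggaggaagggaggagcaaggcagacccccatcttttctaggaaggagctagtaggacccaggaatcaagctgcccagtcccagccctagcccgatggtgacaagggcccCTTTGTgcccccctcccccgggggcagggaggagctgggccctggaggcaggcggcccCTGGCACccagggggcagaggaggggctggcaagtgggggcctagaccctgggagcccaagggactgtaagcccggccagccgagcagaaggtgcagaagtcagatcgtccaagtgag
Opalin promoter (chr19:41077064-41077363, minus strand): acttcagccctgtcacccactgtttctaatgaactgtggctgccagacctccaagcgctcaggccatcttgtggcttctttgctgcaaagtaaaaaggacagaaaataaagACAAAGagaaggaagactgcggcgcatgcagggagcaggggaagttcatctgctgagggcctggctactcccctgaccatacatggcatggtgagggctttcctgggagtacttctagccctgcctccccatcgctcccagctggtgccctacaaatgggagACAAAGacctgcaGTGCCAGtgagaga
Apod promoter (chr16:31314759-31315058, minus strand): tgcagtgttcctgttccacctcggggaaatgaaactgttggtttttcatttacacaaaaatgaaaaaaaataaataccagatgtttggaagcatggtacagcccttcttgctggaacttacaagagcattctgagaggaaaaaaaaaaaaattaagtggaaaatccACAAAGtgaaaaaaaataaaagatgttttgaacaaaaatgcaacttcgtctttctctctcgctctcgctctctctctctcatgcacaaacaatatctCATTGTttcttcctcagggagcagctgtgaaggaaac
ACAAAG was present in 5 of the 8 windows (Mag, Mobp, Cnp, Opalin and Apod), with 6 copies in Mobp, and in 18.7% of 27025 windows of all genes; ACAATG was present in Apod alone of the 8 and in 12.8% of all windows. The Myrf-type letters were present in 4 of 8 (Mog, Mag, Cnp and Opalin) and in 7.07% of all windows. The windows of Cldn11 and Mal held neither. TATAAA on the gene's strand was found in 0 of 8 windows, against 8.88% of all. The GC box letters GGGCGG were found in 2 of 8, Cnp and Cldn11, against 35.9% of all. The GC content ranged from 37.3% in Apod to 66.3% in Cldn11, with a median of 52.6% for the 8 windows and 52.7% for all. A match is a stretch of letters and no measured binding.

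Levels were compared between genes on the authors' FPKM scale, which divides by gene length. Mobp, which encodes an abundant small protein of compact myelin, had the highest level, with a mean of 124 FPKM in contralateral, 108 FPKM in ipsilateral and 94.7 FPKM in naive libraries. Mal, a lipid raft protein of the myelin membrane, followed at 75.1, 65.3 and 58.0 FPKM in the same order of groups, and Cldn11, the claudin of the tight junctions between myelin turns, at 59.5, 53.3 and 44.7 FPKM. Cnp, an enzyme of the cytoplasmic channels of myelin, had mean levels of 46.4, 44.3 and 39.3 FPKM, and Mbp, the protein that zips the inner membrane faces together, 39.1, 35.0 and 33.3 FPKM. Mog, a protein of the outermost myelin surface, stood at 31.3, 29.9 and 25.5 FPKM and Mag, the adhesion molecule facing the axon, at 24.3, 22.9 and 20.3 FPKM. Opalin, a membrane glycoprotein of mature oligodendrocytes, had mean levels of 15.5, 13.4 and 12.6 FPKM. Apod, a secreted lipocalin that binds lipids and is made by oligodendrocytes but also by perivascular and fibroblast-like cells, had 18.0, 14.3 and 12.3 FPKM.

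The order from Mobp down to Mog was identical in 12 of 12 libraries. Among neighbours in that order, the ranges over naive libraries did not overlap between Mobp and Mal or between Mag and Opalin, and overlapped for every other pair of neighbours. The order of Opalin and Apod varied, with Opalin above Apod in 5 of 12 libraries. The FPKM of Mbp rests on a gene with 14 coding transcripts in GENCODE M21 and depends on the length assigned to it.

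In the coordinates of the deposited table (GRCm38) the genes lie on 9 chromosomes: Mbp (ENSMUSG00000041607) at chr18:82475146-82585637 and Cnp (ENSMUSG00000006782) at chr11:100574904-100591729, Mobp (ENSMUSG00000032517) at chr9:120149742-120181484 and Cldn11 (ENSMUSG00000037625) at chr3:31149920-31164324 on the plus strand. On the minus strand lie Mog (ENSMUSG00000076439) at chr17:37010743-37023398, Mag (ENSMUSG00000036634) at chr7:30899176-30914873, Opalin (ENSMUSG00000050121) at chr19:41062474-41077113, Mal (ENSMUSG00000027375) at chr2:127633226-127656695 and Apod (ENSMUSG00000022548) at chr16:31296192-31314808. All 9 are protein-coding genes.

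The most abundant member illustrates how the libraries differed. In CPM, counts scaled to a common library size with TMM factors, Mobp was at 1109, 1179, 516 and 500 CPM in contralateral libraries 1 to 4. It was at 1011, 734, 710 and 473 CPM in ipsilateral libraries 1 to 4, against 602, 761, 656 and 515 CPM in naive libraries 1 to 4. Contralateral 1 and 2 and ipsilateral 1 thus lay above every naive library, while contralateral 4 and ipsilateral 4 lay below every naive library.

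Mbp, too, was highest in contralateral 1 and 2 and ipsilateral 1. It had 752, 844, 461 and 443 CPM in contralateral and 773, 540, 541 and 423 CPM in ipsilateral libraries, against 468, 579, 560 and 537 CPM in naive libraries. Its lowest naive value was in naive 1, whereas the other 8 genes had theirs in naive 4.

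Mal had 301, 344, 152 and 139 CPM in contralateral libraries and 275, 215, 193 and 144 CPM in ipsilateral libraries, against 178, 209, 188 and 151 CPM in naive ones. Cldn11 had 151, 155, 66.0 and 70.0 CPM in contralateral libraries and 138, 99.9, 94.6 and 71.0 CPM in ipsilateral libraries, against 83.6, 96.5, 86.8 and 66.9 CPM in naive ones. Both genes, like every other member, separated contralateral 1 and 2 from contralateral 3 and 4 by more than the whole naive range. Cnp had 320, 348, 176 and 176 CPM in contralateral libraries and 302, 289, 230 and 170 CPM in ipsilateral libraries, against 219, 236, 228 and 186 CPM in naive ones. Ipsilateral 2 stood closer to ipsilateral 1 for Cnp than for the other members. Cnp overlaps Dnajc7, on the opposite strand, and the strandedness of the libraries is not given in the sources used here, so reads of the shared stretch cannot be told apart.

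Mog had 71.1, 81.7, 37.5 and 34.3 CPM in contralateral libraries and 75.1, 53.8, 50.9 and 38.3 CPM in ipsilateral libraries, against 46.7, 55.2, 49.0 and 33.2 CPM in naive ones. Mag had 206, 218, 106 and 98.8 CPM in contralateral libraries and 206, 147, 140 and 109 CPM in ipsilateral libraries, against 129, 151, 132 and 116 CPM in naive ones. The CCI libraries lay on both sides of the naive range for Mag, and for Mog they lay inside it or above it. Opalin had 34.8, 39.7, 20.2 and 18.9 CPM in contralateral libraries and 28.7, 27.0, 24.6 and 19.6 CPM in ipsilateral libraries, against 23.4, 26.2, 23.1 and 20.0 CPM in naive ones. Its SD over ipsilateral libraries, 0.23 on the log2 scale, was the lowest of the 9 genes.

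Apod had 83.0, 102, 61.4 and 67.5 CPM in contralateral libraries and 89.7, 66.3, 52.1 and 45.6 CPM in ipsilateral libraries, against 52.6, 57.3, 57.7 and 47.5 CPM in naive ones. It was the single member whose contralateral and naive values did not overlap. The share of all tested genes without such overlap was not counted, so nothing is read from this.

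**Figure D1:**
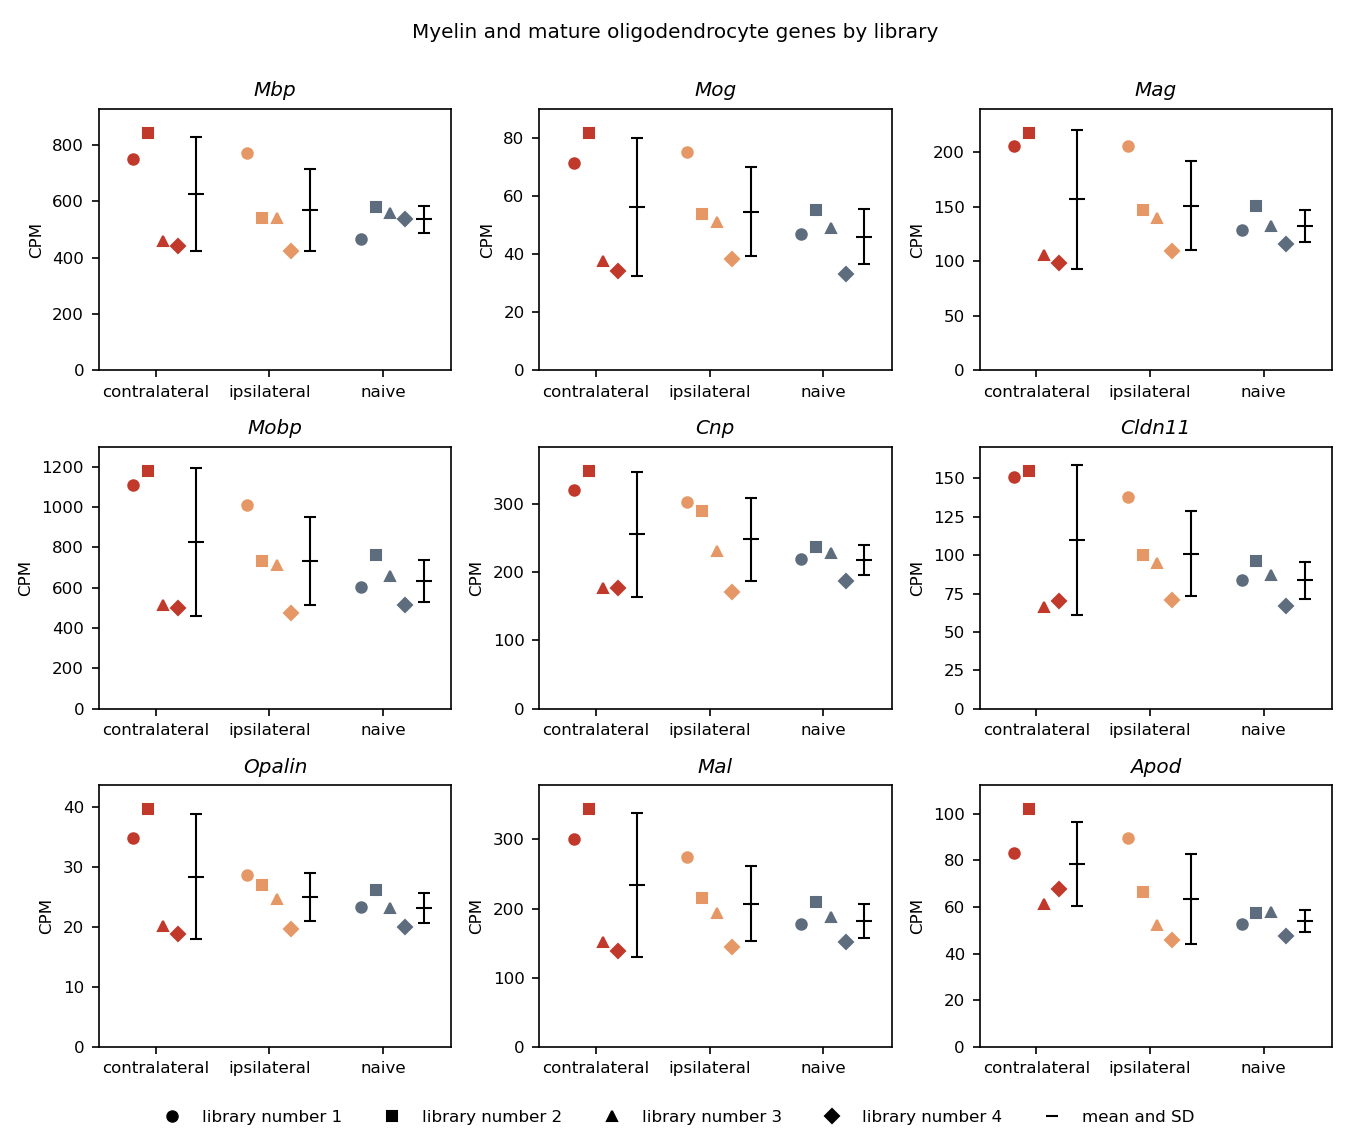
Level of each of the 9 genes in CPM (vertical axis, from 0) by group; each point is 1 library, its shape the library number, and the bars to the right of each group are the mean and SD (n = 4). Contralateral 1 and 2 and ipsilateral 1 stand above all naive libraries for all 9 genes, and Apod is the gene whose 4 contralateral libraries all exceed the naive range. The shares of all tested genes that do so were not counted.

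Counted over genes, all 9 members were above the naive range in contralateral 1, contralateral 2 and ipsilateral 1, and 5 in ipsilateral 2. In contralateral 3, 4 members lay below the naive range and 1, Apod, above it; in contralateral 4, 6 lay below and Apod again above. Ipsilateral 3 had all 9 members inside the naive range, and ipsilateral 4 had 7 below it. The share of all tested genes outside the naive range was not counted for any library. The members also moved together, as given below, so these counts are not 9 separate results. Together the 9 genes took 0.310%, 0.329%, 0.160% and 0.156% of all counts in contralateral libraries and 0.285%, 0.217%, 0.202% and 0.147% in ipsilateral libraries, against 0.181%, 0.218%, 0.198% and 0.167% in naive libraries. The mean share was 0.239 ± 0.0937% in contralateral, 0.213 ± 0.0569% in ipsilateral and 0.191 ± 0.0216% in naive libraries (SD, n = 4 each).

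**Figure D2:**
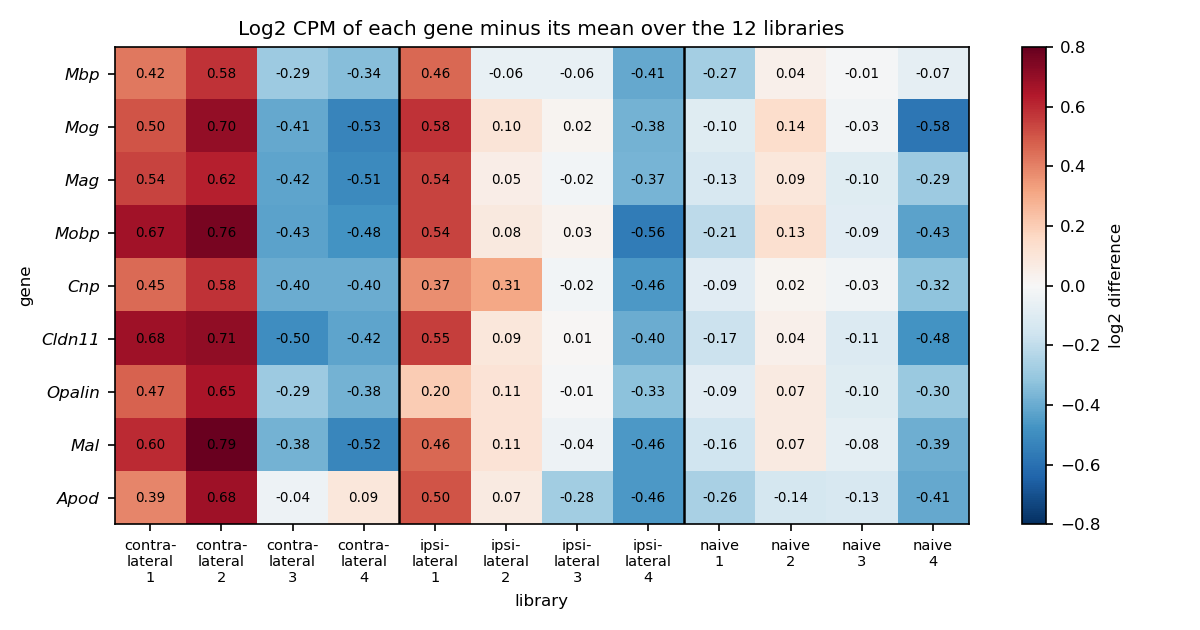
Log2 CPM of each of the 9 genes (rows) in each of the 12 libraries (columns) minus the gene's mean over the libraries; red is above and blue below that mean, and vertical lines separate the groups. Contralateral 2 is highest, at 0.58 to 0.79, and Apod departs from the other rows in contralateral 3 and 4, at -0.04 and 0.09.

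Across the 12 libraries the members moved together. Pearson's r of log2 CPM between pairs of members ranged from 0.90 to 0.99 over the 28 pairs without Apod, and from 0.78 to 0.82 over the 8 pairs with Apod; the libraries share depth and composition, and these values are a description. Taken within groups, as deviations from each group's mean, r was 0.91 to 0.99 without Apod and 0.81 to 0.88 with it. The size of the movement differed by gene: on the mean of the other members, the slope was 1.23 for Mobp, 1.17 for Cldn11 and 1.14 for Mal, but 0.81 for Opalin, 0.80 for Mbp and 0.76 for Apod. From lowest to highest library the members spanned 2.0 times (Mbp) to 2.49 times (Mobp).

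The spread was wide in CCI libraries. The SD of log2 CPM had a median over the members of 0.61 in contralateral and 0.38 in ipsilateral libraries, against 0.16 in naive libraries, and was above the naive one in 9 of 9 members on either side. Over all tested genes the median SD was 0.15 in contralateral and 0.11 in ipsilateral libraries, against 0.11 in naive libraries, and 63.7% and 49.7% of genes had a higher SD than in naive libraries. The difference in spread was not tested. edgeR's biological coefficient of variation was 20.9% (Apod) to 31.9% (Mobp) for the members and 10.8% for the median tested gene, so that 86.4% to 95.8% of tested genes varied less between libraries of a group.

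The design first sets the contralateral mPFC against that of naive mice. The fold change of all 9 members was positive, against 50.1% of all tested genes. The median log2 fold change was 0.29 over the members, against 0.00 over all tested genes. Apod stood at 0.54 (SE 0.21, 95% confidence interval 0.08 to 1.01): contralateral libraries averaged 78.5 ± 18.1 CPM, against 53.8 ± 4.76 CPM for naive ones (SD, n = 4 each). Cldn11 followed at 0.40 (-0.30 to 1.11), Mobp at 0.38 (-0.35 to 1.12) and Mal at 0.37 (-0.33 to 1.06), then Mog and Opalin at 0.29 each, Mag at 0.25, Cnp at 0.23 and Mbp at 0.22 (-0.30 to 0.75).

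None of the 9 passed the threshold of an adjusted p under 0.05 in edgeR's quasi-likelihood test (adjusted p = 1.00 for all 9), nor did any of the 15808 tested genes (0%). At an unadjusted p under 0.05 there was 1 member, Apod, of 9, against 3.78% of all tested genes. That count became 0 without contralateral 1, contralateral 2, naive 1 or naive 4 in turn. The median of the members was 0.18 without contralateral 1, 0.09 without contralateral 2, 0.44 without contralateral 3 and 0.47 without contralateral 4. Apod's own value ranged from 0.40 to 0.65 over the alternatives.

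Neuronal markers were read in the same libraries. In contralateral 1 the 11 striatal neuron markers summed to 576 CPM, with Adora2a at 15.2 CPM and Drd2 at 8.77 CPM, against 262 to 322 CPM for the sum in every other library. The 10 excitatory neuron markers summed to 5270, 5581, 6672 and 6222 CPM in contralateral libraries 1 to 4, against 6021 to 6251 CPM in naive libraries, while ipsilateral 1, also high in myelin, was at 6022 CPM. Averaged over the 10 genes as centred log2 CPM, which weights them equally, they stood at -0.15, -0.07, -0.06 and -0.17 in contralateral libraries 1 to 4 and at -0.07 in ipsilateral 1, against -0.01 to 0.11 in naive libraries. The summed and the averaged level thus ordered the contralateral libraries differently. None of these striatal and excitatory markers was at 0 in any library. Contralateral 2, with the highest myelin level, had a striatal sum of 319 CPM and ipsilateral 1 one of 322 CPM, against 275 to 322 CPM in naive libraries. The part of these markers in the myelin result was not tested.

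In the comparison of the ipsilateral side with naive cortex, the fold change of all 9 members was again positive and smaller, against 49.9% of all tested genes positive. The median was 0.19 over the members, against 0.00 over all tested genes. Cldn11 stood at 0.27 (SE 0.32), Mog and Apod at 0.24, Mobp at 0.21, Mag, Cnp and Mal at 0.19, Opalin at 0.11 and Mbp at 0.09. The intervals reached from -0.53 (Mobp) to 0.98 (Cldn11), and Mbp averaged 569 ± 147 CPM on the ipsilateral side, against 536 ± 48.8 CPM for naive mice (SD, n = 4 each). None of the 9 passed (edgeR adjusted p = 0.972 to 0.984), and 0 were at an unadjusted p under 0.05, against 4.83% of tested genes (0% by adjusted p). Every member's groups overlapped, and the share of all tested genes with such overlap was not counted. Both comparisons use the same naive libraries, so their shared direction is not independent. Without ipsilateral 1, the median of the members was 0.03 and Mbp turned to -0.09; without naive 4 the median was 0.12, and without ipsilateral 4 it was 0.33.

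**Figure D3:**
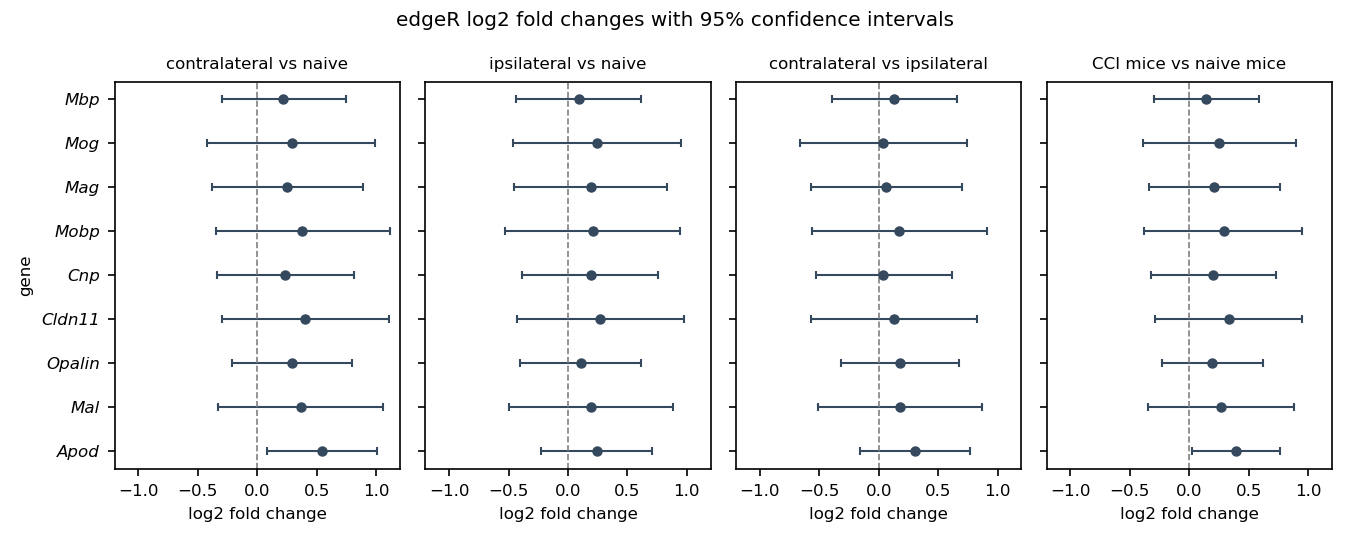
Log2 fold changes (points) with 95% confidence intervals (lines) of the 9 genes in 4 edgeR comparisons, the first-named group over the second. The intervals include 0 for all genes in all panels except Apod for contralateral against naive, 0.08 to 1.01, and for CCI against naive mice, 0.02 to 0.76; neither passed after adjustment.

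Between the hemispheres of CCI mice the members had fold changes of 0.04 (Mog and Cnp) to 0.31 (Apod), contralateral over ipsilateral, with a median of 0.13, against 0.00 over all tested genes. None passed (edgeR adjusted p = 0.696 for Apod to 0.977 for Mog), and 0 of 9 were at an unadjusted p under 0.05, against 8.36% of tested genes (0% by adjusted p). The direction rested on single libraries: the median was 0.00 without contralateral 1, -0.07 without contralateral 2 and 0.02 without ipsilateral 4, but 0.31 without contralateral 3, 0.30 without contralateral 4 and 0.32 without ipsilateral 1. In the fit without ipsilateral 1, 1 member was at an unadjusted p under 0.05 in edgeR. The share of all tested genes at that level was not counted in that fit. The median was 0.28 without both libraries numbered 3. Without both numbered 2 it was -0.06, and the fold changes became -0.07 for Mbp, -0.20 for Mog, -0.15 for Mag and -0.08 for Cldn11. In that fit 286 genes passed, and without contralateral 2 alone 159, with 0 members in either.

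By library number the hemispheres of CCI mice differed in both directions. In number 2 all 9 members were higher on the contralateral side, by 0.27 (Cnp) to 0.68 (Mobp) on the log2 scale. In number 3, 8 of 9 were lower on that side, with a median difference of -0.38 over the 9, and Apod was higher by 0.23. In numbers 1 and 4 the median differences were 0.08 and -0.02, and Apod stood apart in number 4 at 0.55, where the other members lay between -0.15 and 0.08.

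**Figure D4:**
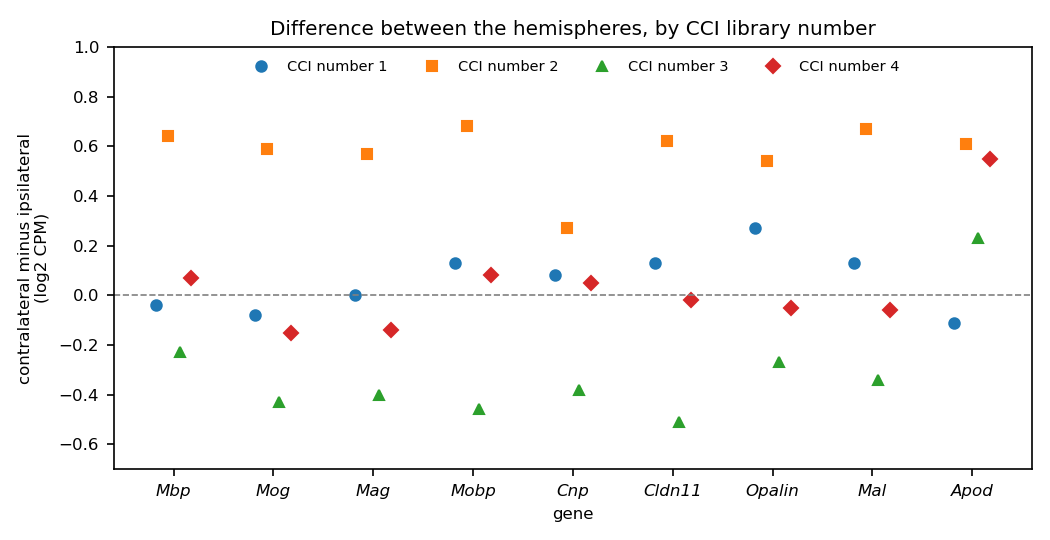
Contralateral minus ipsilateral log2 CPM (vertical axis) of the 9 genes for the CCI libraries of each number. Number 2 lies above 0 for all genes, number 3 below 0 for all but Apod, and numbers 1 and 4 between -0.15 and 0.27 except for Apod in number 4.

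When counts of the left and right libraries of one number were summed as one mouse, Mobp had 1061, 929, 613 and 488 CPM in CCI mice 1 to 4, against 602, 762, 656 and 516 CPM in naive mice. Apod had 86.2, 82.0, 56.8 and 56.8 CPM in CCI mice, against 52.6, 57.4, 57.6 and 47.5 CPM in naive mice. For all 9 genes CCI mice 1 and 2 were above every naive mouse and CCI mice 3 and 4 were not, and for 6 of 9 CCI mouse 4 was below every naive mouse. The share of all tested genes for which this held was not counted. The log2 fold change was 0.39 for Apod (SE 0.16), 0.33 for Cldn11 and 0.14 for Mbp, with a median of 0.25 over the members and 0.00 over all 16179 tested genes. None passed (edgeR adjusted p = 1.00 for all 9; 0% of tested genes), and 1, Apod, was at an unadjusted p under 0.05, against 4.2% of tested genes. That count was 0 without CCI mouse 1 or 2 or any 1 naive mouse, and 2 without CCI mouse 4. The share of all tested genes was not counted in these fits. The median of the members was 0.09 without CCI mouse 1, 0.15 without CCI mouse 2 or naive mouse 4, and 0.41 without CCI mouse 4.

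Apod was set against the mean of the other 8 members. The difference of centred log2 CPM was -0.15, 0.01, 0.35 and 0.54 in contralateral libraries and 0.04, -0.03, -0.27 and -0.04 in ipsilateral libraries, against -0.11, -0.22, -0.06 and -0.05 in naive libraries. Relative to the other members, Apod was thus highest in contralateral 3 and 4. The sums of astrocyte, endothelial and microglia markers were also highest in these libraries. Astrocyte markers without Slc1a2, which took separate levels between libraries, summed to 1650, 1462, 1895 and 2046 CPM in contralateral and 1446 to 1560 CPM in ipsilateral libraries, against 1543 to 1772 CPM in naive ones. The 8 endothelial markers summed to 257, 248, 323 and 344 CPM in contralateral and 252 to 278 CPM in ipsilateral libraries, against 267 to 311 CPM in naive libraries. The 10 microglia markers summed to 456, 406, 509 and 576 CPM in contralateral and 409 to 428 CPM in ipsilateral libraries, against 423 to 498 CPM in naive libraries. The 10 meningeal and fibroblast markers summed to 74.0, 34.1, 63.0 and 88.6 CPM in contralateral and 38.1 to 63.5 CPM in ipsilateral libraries, against 58.4 to 79.6 CPM in naive libraries. None of these markers was at 0 in any library, and their part in the level of Apod was not tested.

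Other genes of myelin and mature oligodendrocytes were read from a list of 40. The log2 fold change was positive in 37 of 40 for contralateral against naive (median 0.22), in 34 of 40 for ipsilateral against naive (0.10), in 35 of 40 for contralateral against ipsilateral (0.13) and in 37 of 40 for CCI mice against naive mice (0.16), against medians of 0.00 over all tested genes. Of all tested genes, 50.1%, 49.9%, 51.1% and 50.3% had a positive fold change, in that order. Most of the 40 moved with the members across libraries, as given below, so these counts are not 40 separate results. In any comparison 0 of the 40 passed. For contralateral against naive the smallest p belonged to the tetraspanin gene Cd9 (0.28, SE 0.11) and to Nkx6-2 (0.47, SE 0.20), a transcription factor gene of oligodendrocytes. For ipsilateral against naive they were Il33, an alarmin gene of oligodendrocytes and astrocytes (-0.61, SE 0.32), and Evi2a (-0.56, SE 0.36). Between the sides they were Cd9 (0.24) and Il33 (0.62), and for mice Nkx6-2 (0.32) and Cd9 (0.16). Peripheral myelin was scarcely detected: the 4 Schwann cell genes of the list summed to 0.688 to 1.73 CPM, 2 of them were at 0 in at least 1 library, and 1 was at 0 in all 12.

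Among the genes most like the members, by Pearson's r of log2 CPM with the members' mean over the 12 libraries, were the cytoskeletal gene Ermn (0.991), the gap junction gene Gjb1 (0.991), the lysophosphatidic acid receptor gene Lpar1 (0.990), Tmem88b (0.989) and Fa2h (0.988), an enzyme that hydroxylates myelin lipids. All of these stand on the list of 40. An r above 0.9 was found for 25 of the 40, against 95 of 15808 tested genes with the members included. An r below 0.5 was found for 3 of the 40: Cntn2 (0.47), Evi2a (0.19) and Qdpr (-0.07).

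Of 14 precursor and newly formed oligodendrocyte markers, Bcas1 (0.99) and Enpp6 (0.95), both marks of cells that begin to form myelin, followed the members, and 11 of 14 had an r below 0.5. Pdgfra, the growth factor receptor of precursor cells, had an r of -0.07 and Cspg4, the NG2 proteoglycan, 0.11. Pdgfra had 60.7, 53.8, 61.8 and 72.9 CPM in contralateral libraries and 56.4, 55.6, 56.2 and 46.4 CPM in ipsilateral libraries, against 56.6, 60.2, 59.4 and 54.0 CPM in naive ones, with contralateral 4 highest and contralateral 2 lowest of its group. The fold change was positive in 13 of 14 for contralateral against naive (median 0.13), 5 of 14 for ipsilateral against naive (-0.10), 14 of 14 between the sides (0.20) and 9 of 14 for mice (0.03). Over all tested genes it was positive in 50.1%, 49.9%, 51.1% and 50.3%, in that order. None passed. For ipsilateral against naive 2 of 14 were at an unadjusted p under 0.05, both lower on the ipsilateral side, against 4.83% of tested genes. Between the sides 7 of 14 were, all higher on the contralateral side, against 8.36% of tested genes in either direction; there the astrocyte (10 of 10), microglia (10 of 10), endothelial (8 of 8) and meningeal (10 of 10) markers also had positive fold changes; whether these move together was not tested. Among those of smallest p were Gpr17 (0.18) for contralateral against naive, Tmem100 (-0.41) for ipsilateral against naive, and C1ql1 (0.45, SE 0.13) between the sides, with an edgeR adjusted p = 0.592. For mice they were Tmem100 (-0.20) and Gpr17 (0.10).

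Enzymes of cholesterol synthesis, which supply the main lipid of myelin, did not follow the members closely. Of 18 enzymes, 0 had an r above 0.9 and 10 had one below 0.5, with a median of 0.43. The fold change was positive in 8 of 18 for contralateral against naive (median -0.02), 13 of 18 for ipsilateral against naive (0.05), 5 of 18 between the sides (-0.07) and 11 of 18 for mice (0.03), and 0 passed. The shares over all tested genes were 50.1%, 49.9%, 51.1% and 50.3%, in that order. Those of smallest p were Dhcr7 (0.25, SE 0.12) and Sqle (-0.20, SE 0.10) for contralateral against naive, and Sqle (-0.23) and Mvk (0.16) between the sides. For mice Dhcr7 stood at 0.19. Sums over the 18 enzymes were 1363, 1543, 1284 and 1275 CPM in contralateral and 1395 to 1494 CPM in ipsilateral libraries, against 1358 to 1396 CPM in naive libraries.

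**Figure D5:**
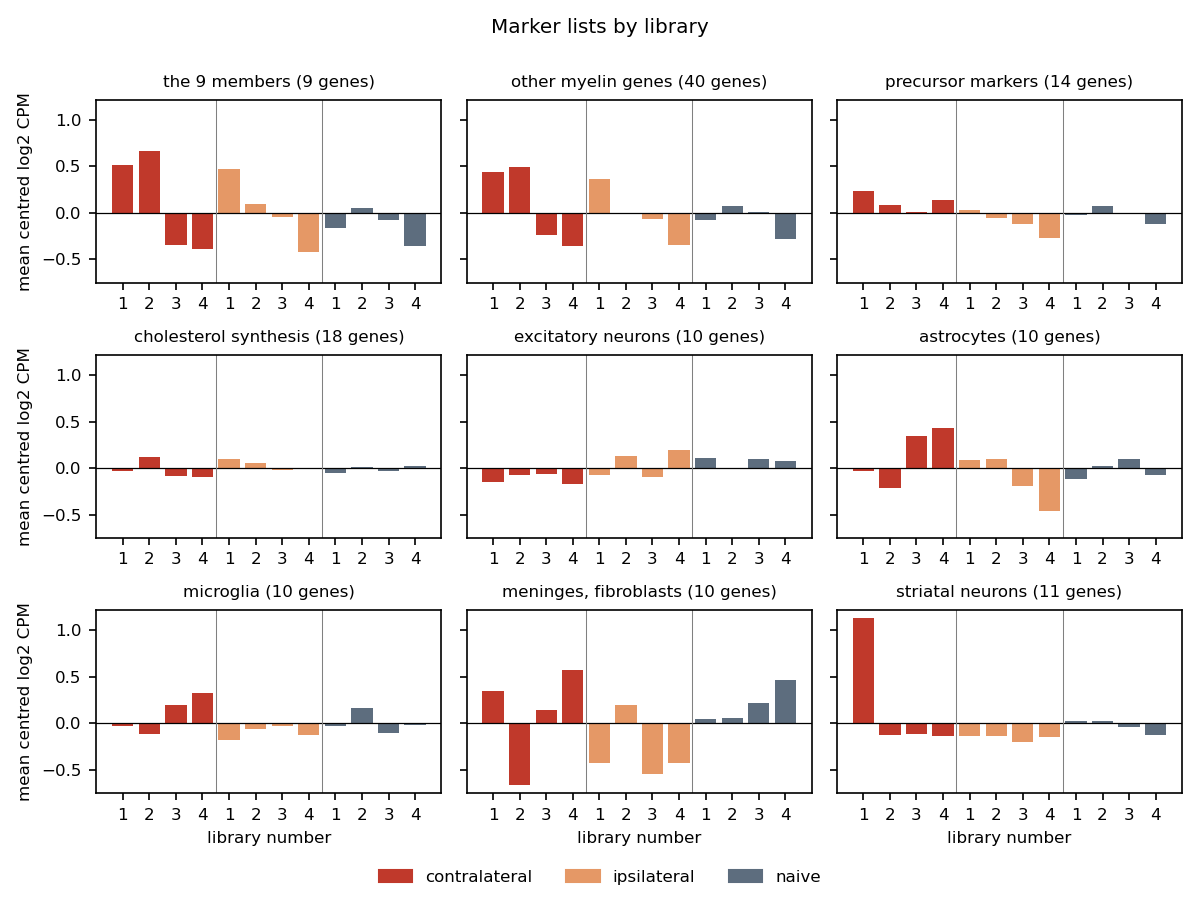
Log2 CPM minus the gene's own mean, averaged over each list (vertical axis), in the 12 libraries, numbered 1 to 4 within contralateral, ipsilateral and naive groups; bars start at 0. The 9 members and the 40 other myelin genes are both highest in contralateral 2, contralateral 1 and ipsilateral 1, while striatal markers stand out in contralateral 1 alone, at 1.13.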

How the data were processed

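One deposited table gives each library's count per gene and, from the authors, its FPKM, a level scaled for gene length, per the file headers; a second, annotated table was not used. HISAT2 2.0.4 and the build GRCm38 (mm10) come from the submitters' processing notes; for the counting program, its strand setting and annotation the sources used here name nothing. Libraries were made from total RNA with an Illumina mRNA kit, per the labels' protocols.

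Counts were tested with edgeR 4.0.16 (R 4.3.3; TMM, filterByExpr, robust quasi-likelihood, Benjamini-Hochberg over all 15808 tested genes; two-sided), with 12 libraries and 3 groups in one fit. In a second fit (16179 genes) left and right counts of one CCI number were summed, reading the number in the library codes as the mouse, which the labels do not state. CPM used TMM factors; log2 CPM used an added 1 CPM. FPKM served to compare levels between genes. The script was tested on simulated data with larger fold changes and less spread than the members had. The power to find differences of the members' size was not assessed. Alternatives were DESeq2 1.42.0, limma 3.58.1 voom, other scalings, no filter, only the groups compared, a replicate block and leaving out each library.

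The genes and lists were chosen with earlier results of these data known. The genes named were the 9 members, per list of other myelin, precursor and cholesterol genes up to 2 of smallest p in each comparison, and the 6 genes most like the members; some genes that this rule names are not reported here. Bcas1, Enpp6, Pdgfra, Cspg4, Cntn2, Qdpr and the marker genes Adora2a, Drd2 and Slc1a2 were named after their values were seen. No library stood apart from its group for any member by Dixon's test in 27 groups of 4. That test reads the gap beside an extreme value. It cannot flag a group split into 2 high and 2 low libraries, as the contralateral group was for Mobp.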

Additional observations from a re-analysis of the deposited data

How the results depend on the processing

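No member passed an adjusted p under 0.05 under any of the 15 to 20 alternatives per comparison, and the median of the members kept its sign except between the sides, where it ranged from -0.07 to 0.32. The direction was lost for single members, none of them past the threshold. Between the sides Mog turned to -0.02 with limma voom and to -0.01 with a replicate block. Leaving out 1 library, or both of one CCI number, gave ranges between the sides of -0.20 to 0.24 for Mog, -0.15 to 0.26 for Mag, -0.05 to 0.37 for Mobp, -0.14 to 0.19 for Cnp, -0.08 to 0.32 for Cldn11, -0.07 to 0.32 for Mbp, -0.02 to 0.34 for Opalin and -0.07 to 0.36 for Mal. Mbp ranged from -0.09 to 0.21 for ipsilateral against naive and from 0.00 to 0.27 for mice. The members at an unadjusted p under 0.05 ranged from 0 to 1 for contralateral against naive, 0 to 1 between the sides and 0 to 2 for mice, and were 0 for mice with no filter. The share of all tested genes at that level was not counted under these alternatives. The cause was not tested.

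Over all tested genes, deviations from the group means of left and right libraries of one number correlated at -0.12 to 0.06. Left and right libraries of different numbers correlated at -0.17 to 0.18. No pairing by number was seen in these values, which cannot show whether left and right libraries of one number share a mouse. CCI and naive libraries of one number, which are different mice, correlated at -0.11 to 0.13. For the members, the mean centred log2 CPM was 0.52, 0.67, -0.35 and -0.39 in contralateral libraries 1 to 4. It was 0.47, 0.10, -0.04 and -0.42 in ipsilateral libraries 1 to 4, so numbers 1 and 2 were the highest on both sides. In naive libraries 1 to 4, which are other mice, it was -0.16, 0.05, -0.08 and -0.36. Number 4 was thus the lowest in each group, naive included, and number 2 the highest of the naive group. The reason for this shared order was not tested. With the replicate block the median of the members was 0.24 for contralateral against naive, 0.15 for ipsilateral against naive, 0.11 between the sides and 0.21 for mice, with 0 members passing. The block also joined naive mice to CCI mice of the same number, which is arbitrary. Only the comparison between the sides could hold a pairing. Over all tested genes DESeq2 called 3, 9, 0 and 31 in these comparisons in that order, and limma voom 0 in each; the replicate block gave 1, 1, 0 and 1, the fit of only the groups compared 1 for contralateral against naive and 7 for ipsilateral against naive, and for mice scaling by total counts gave 4 and no filter 5. Leaving out 1 library or mouse gave 0 to 2, 0 to 1, 0 to 286 and 0 to 6.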
